A study of Sus scrofa with 6 samples.

Results

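Of the 326 mature pig miRNAs listed in each library, 8 are best known from blood cells and were followed here by name. The 5 leukocyte miRNAs were miR-142-3p, miR-142-5p, miR-150, miR-155-5p and miR-342, and the 3 erythroid miRNAs were miR-451, miR-486 and miR-144. They were measured by small RNA sequencing of denuded oocytes, that is, oocytes stripped of their cumulus cells, from ovaries of prepubertal gilts collected at an abattoir. The 3 large-follicle libraries (LO) came from follicles of 3 to 6 mm emptied through a 20-gauge needle on a 10 mL syringe. The 3 small-follicle libraries (SO) came from follicles under 2 mm emptied through a 23-gauge needle on a 5 mL syringe, so follicle size and aspiration tools cannot be told apart. The sources used here do not say how many oocytes or gilts stand behind a library, so p-values measure the spread between these libraries. Listed miRNA reads per library ran from 7755 to 42541 in LO and from 44964 to 55230 in SO, and 1 read was worth 0.702 to 2.17 RPM (reads per 1000000 of the library total) for LO and 0.457 to 0.522 RPM for SO.

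Blood cells carry lineage-restricted miRNAs. The miR-142 precursor is transcribed in nearly all cells of haematopoietic origin and gives a product from each arm of its hairpin. miR-150 accumulates in mature lymphocytes, miR-155 is induced when lymphocytes and macrophages are activated, and miR-342 is made from an intron of EVL in leukocytes and also in other cells. miR-144 and miR-451 are transcribed together under GATA1 in the erythroid lineage, and miR-451 matures by Argonaute 2 cleavage and without Dicer. miR-486, made from ANK1, is abundant in red cells and also in muscle. A growing follicle has its blood vessels in the theca, outside the basement membrane that encloses the granulosa cells and the oocyte. In such bulk libraries fewer cells of a type and less RNA per cell cannot be told apart.

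The mature sequences, as deposited and in DNA letters, are printed under their full pig names, with the prefix ssc that is left out elsewhere, to show that the names can be told apart by their reads. Capitals mark the seed, bases 2 to 8 from the 5′ end.
ssc-miR-142-3p: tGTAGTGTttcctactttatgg
ssc-miR-142-5p: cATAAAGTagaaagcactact
ssc-miR-150: tCTCCCAAcccttgtaccagtg
ssc-miR-155-5p: tTAATGCTaattgtgatagggg
ssc-miR-342: tCTCACACagaaatcgcacccgtca
ssc-miR-451: aAACCGTTaccattactgagtt
ssc-miR-486: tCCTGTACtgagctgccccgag
ssc-miR-144: tACAGTATagatgatgtac
No 2 of these share a seed, and none of the 326 names shares a seed with any of them. Over the first 20 bases (19 for miR-144) the nearest other name differed from each at 8 or more positions. The miR-142 arms come from the same hairpin: 18 of 21 bases of miR-142-5p match the reverse complement of miR-142-3p. In RefSeq's Sscrofa11.1 annotation MIR451 and MIR144 are direct neighbours, MIR342 lies within the span of EVL and MIR486-1 within that of ANK1. That table held a precursor under the symbol searched for 7 of the 8 names, and not for miR-150.

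All 8 miRNAs had at least 1 read, and together they held 353 of 218890 listed miRNA reads (0.161%). miR-342 led with 167 reads, rank 66 among the listed names. miR-142-3p followed with 88 reads (rank 88), miR-155-5p with 32 (rank 119) and miR-142-5p with 25 (rank 134). miR-451 had 13 reads, miR-150 had 11, miR-486 had 10 and miR-144 had 7, with ranks from 159 to 174. By comparison the most abundant miRNA of these oocytes, miR-205, had 83127 reads. The members had a median of 19 reads, beside 31 for the 242 miRNAs with at least 1 read. miR-342, miR-142-3p and miR-155-5p lay above 31 reads and the other members below.

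**Figure D1:**
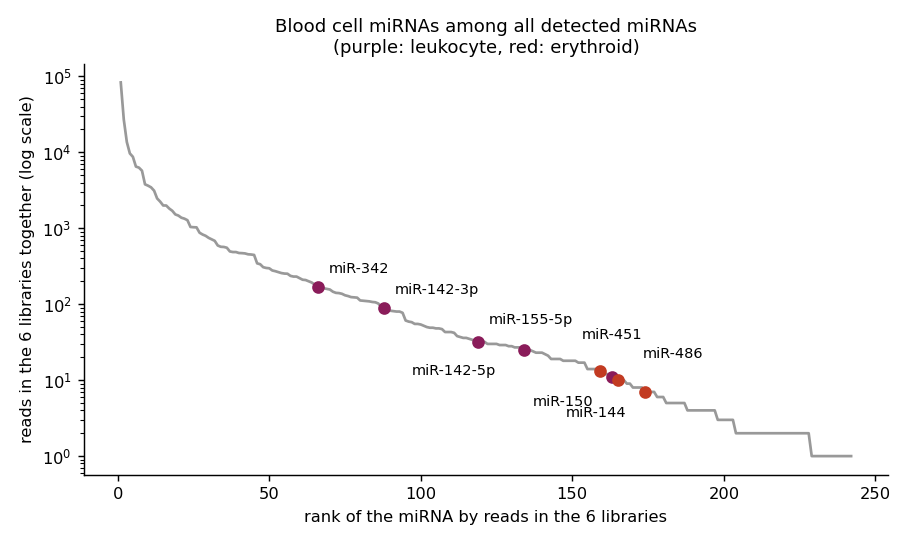
Reads of each detected miRNA in the 6 libraries together (y axis, log scale) against its rank (x axis); the grey line is all 242 detected miRNAs, purple points are leukocyte and red points erythroid miRNAs. miR-342 stands highest at 167 reads, and the 3 erythroid names lie between 7 and 13 reads.

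Most reads of the miR-142 arms came from 1 library, SO replicate 1, which also had the most listed miRNA reads. In order of replicate number, miR-142-3p had 2, 3 and 1 reads for LO (3.47, 6.50 and 0.702 RPM) and 80, 1 and 1 reads for SO (41.8, 0.521 and 0.457 RPM). miR-142-5p had 0, 0 and 2 reads in LO and 22, 0 and 1 reads in SO, which is 11.5 RPM in SO replicate 1 and at most 1.40 RPM in any other library. SO replicate 1 thus held 102 of the 113 reads of the precursor, and the other 5 libraries held 1 to 3 reads each. As a share of listed miRNA reads, miR-142-3p stood at 0.145% (0.115 to 0.180) in SO replicate 1. In LO replicate 2, the shallowest library, it stood at 0.0387%, with a wide interval of 0.00798 to 0.113. Relative to listed miRNA reads, both arms together were 27.5 times higher in SO replicate 1 than in the 5 other libraries pooled (95% exact interval 14.7 to 56.8, counting error only). By arm the ratios were 29.6 (14.3 to 71.0) for miR-142-3p and 21.7 (6.53 to 113) for miR-142-5p. SO replicate 1 was singled out by these same counts, and both arms come from 1 precursor. The ratios are therefore a description, and their intervals leave out the spread between libraries. The 3p arm made up 78.4% of the miR-142 reads in SO replicate 1 (exact Clopper-Pearson interval 69.2 to 86.0) and 72.7% (39.0 to 94.0) in the other 5, so no difference in arm use was detectable at this depth. Where a library had 0 reads of a miRNA, the limit that a count of 0 allows is 3 reads, or 2.11 to 6.50 RPM for LO libraries and 1.37 to 1.57 RPM for SO libraries.

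**Figure D2:**
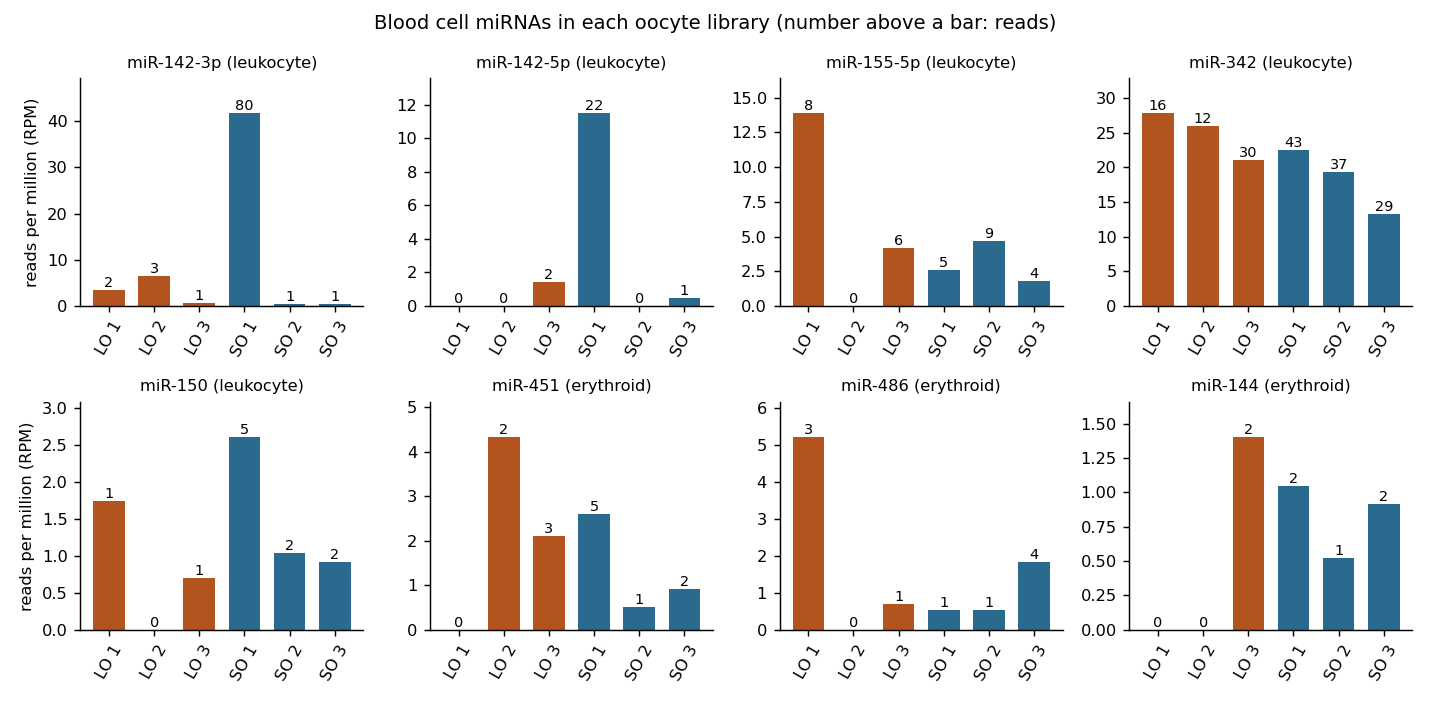
Level of each of the 8 miRNAs (y axis, RPM; each panel has its own scale from 0) in the 6 libraries (x axis; LO orange, SO blue), with the number of reads above each bar. miR-142-3p and miR-142-5p stand at 80 and 22 reads in SO replicate 1 and at 3 reads or fewer elsewhere, while miR-342 is spread over all 6 libraries.

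miR-155-5p and miR-342 were not raised in that library as miR-142 was, and miR-150 had too few reads to tell. miR-150, the lymphocyte miRNA, had 1, 0 and 1 reads in LO and 5, 2 and 2 in SO (1.74, 0 and 0.702 RPM against 2.61, 1.04 and 0.914 RPM). SO replicate 1 had the most, at 2.47 times the other 5 libraries, with an interval of 0.596 to 9.71 that includes no difference. miR-155-5p, the activation miRNA, had 8, 0 and 6 reads in LO and 5, 9 and 4 in SO. In RPM the LO values were 13.9, 0 and 4.21 and the SO values 2.61, 4.69 and 1.83, so the highest and the lowest value both belonged to LO. Its ratio in SO replicate 1 to the other 5 was 0.549 (0.165 to 1.45). The opposite arm, miR-155-3p, had 0 reads in every library, which allows a share of up to 0.00137% of all listed reads. miR-150, miR-155-5p and miR-342 together were level in SO replicate 1 with the other 5 libraries, on 53 reads against 157. The interval of their ratio ran from 0.718 to 1.37. miR-342 supplied 43 of the 53 reads and 124 of the 157, so the sum mainly repeats its value.

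miR-342 was the steadiest member. It had 16, 12 and 30 reads in LO (27.8, 26.0 and 21.1 RPM) and 43, 37 and 29 in SO (22.4, 19.3 and 13.3 RPM). LO libraries averaged 25.0 ± 3.48 RPM and SO libraries 18.3 ± 4.67 RPM (SD, n = 3 each), and the groups overlapped because SO replicate 1 lay above LO replicate 3. It was the only member with enough reads to be tested in the fit across 104 miRNAs, where its log2 fold change of LO over SO was 0.45 (SE 0.62, limma FDR 0.780). The SE exceeds the difference. With TMM scaling (trimmed mean of M-values, a scaling to the bulk of the miRNAs) the log2 fold change was 0.22 (limma FDR 0.830), beside medians over all 104 miRNAs of 0.29 on the deposited scale and 0.05 with TMM. Of the 103 other tested miRNAs, those whose log2(RPM + 1) tracked miR-342 most closely over the 6 libraries were miR-374a-5p (Pearson r = 0.87, Spearman rho = 0.66), the endothelial miR-126-3p (0.86 and 0.94) and the smooth muscle and stromal miR-143-3p (0.85 and 0.94). They were picked as the highest of 103 and share the libraries' depths, so these values are a description.

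**Figure D3:**
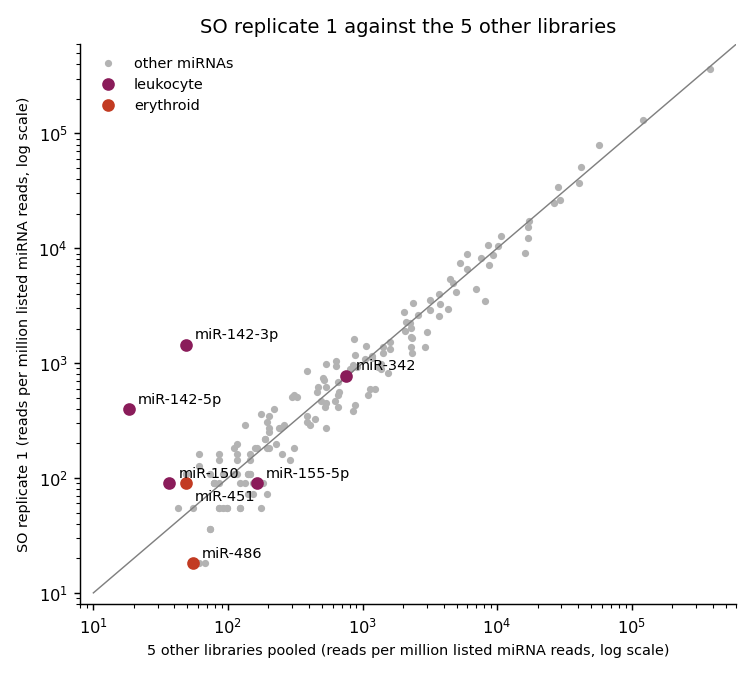
Each point is a miRNA with at least 10 reads in all and at least 1 read on both axes, in reads per 1000000 listed miRNA reads on log scales, in SO replicate 1 (y axis) against the 5 other libraries pooled (x axis); the line marks equal levels, purple points are leukocyte and red points erythroid miRNAs. Both miR-142 arms lie far above the line, at 29.6 and 21.7 times, and miR-342 lies on it, at 1.03 times; miR-144, with 7 reads, is not drawn.

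The erythroid miRNAs were close to the limit of detection in every library. miR-451 had 0, 2 and 3 reads in LO and 5, 1 and 2 in SO (0, 4.33 and 2.11 RPM against 2.61, 0.521 and 0.914 RPM). Its neighbour miR-144 had 0, 0 and 2 reads in LO and 2, 1 and 2 in SO, at most 1.40 RPM. miR-486 had 3, 0 and 1 reads in LO and 1, 1 and 4 in SO, with its highest value, 5.21 RPM, in LO replicate 1, where miR-451 and miR-144 were at 0 reads. Muscle miRNAs are given because miR-486 is also made in muscle. miR-1 had 5, 3 and 6 reads in LO and 8, 5 and 5 in SO. miR-133a-3p had 5, 3 and 5 in LO and 3, 4 and 3 in SO. miR-499-5p had 8, 5 and 30 in LO and 54, 19 and 25 in SO, and held 141 of the 200 reads of the muscle list. The only other muscle name with reads, miR-206, had 4. Mean RPM in LO and SO was 6.47 and 3.02 for miR-1, 6.23 and 1.67 for miR-133a-3p and 15.3 and 16.5 for miR-499-5p. The share of the muscle list was 0.103% in LO replicate 1 and 0.142% in LO replicate 2, where miR-486 was at 0 reads. A count of 0 there allows up to 6.50 RPM, above the 5.21 RPM of LO replicate 1. Whether miR-486 went with the muscle list was not tested. In SO replicate 1, where miR-142 was high, the 3 erythroid names had 8 reads together, 1.08 times the other 5 libraries (0.415 to 2.51). miR-451 is often set against miR-23a as a sign of red cell lysis in plasma, where it is then far above miR-23a. Here it lay below miR-23a in every library: 0 against 15, 2 against 4 and 3 against 14 reads in LO, and 5 against 28, 1 against 8 and 2 against 12 in SO. These are oocyte libraries and not plasma, and what the comparison shows in them was not tested.

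As a share of listed miRNA reads, the leukocyte list of 5 names stood above the erythroid list of 3 in each library. This order did not hold in each library without miR-342. Leukocyte against erythroid reads were then 11 against 3, 3 against 2 and 10 against 6 in LO. In SO they were 112 against 8, 12 against 3 and 8 against 8. The leukocyte list took 0.155%, 0.193% and 0.0940% of the LO libraries and 0.281%, 0.109% and 0.0726% of the SO libraries, in order of replicate number. LO averaged 0.147% ± 0.0501 and SO 0.154% ± 0.111 (SD, n = 3 each). Without SO replicate 1 the SO mean was 0.0908%, below all 3 LO libraries but with SO replicate 2 above LO replicate 3. miR-342 supplied 59.3% to 80.0% of the leukocyte reads in the 5 other libraries and 27.7% in SO replicate 1, where miR-142 supplied 65.8%. Without miR-342 the leukocyte share was 0.203% in SO replicate 1 (exact interval 0.167 to 0.244) and 0.0157% to 0.0630% in the other 5. The erythroid list took 0.0172%, 0.0258% and 0.0141% in LO and 0.0145%, 0.00667% and 0.0157% in SO, and the intervals of all 6 libraries overlapped. On the RPM scale its sum was 4.21 to 5.21 for LO and 1.56 to 4.18 for SO. The lowest LO and the highest SO value were 0.0360 RPM apart, which is less than 1 read in any library. All 8 names together averaged 0.166% in both groups (SD 0.0557 in LO and 0.112 in SO), but without SO replicate 1 the SO mean was 0.102%. Pooled over libraries, they stood in LO at 0.798 times their share in SO (0.623 to 1.01, counting error only). Without SO replicate 1 this was 1.36 times (1.01 to 1.82).

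**Figure D4:**
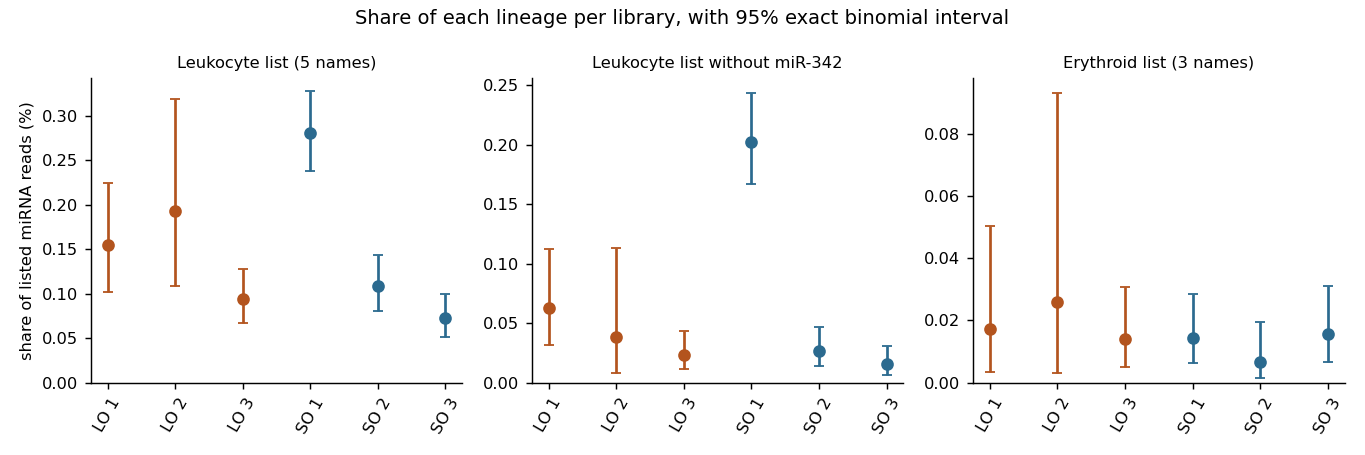
Share of listed miRNA reads (y axis, percent; each panel has its own scale from 0) taken by the leukocyte list, the leukocyte list without miR-342 and the erythroid list in each library (x axis; LO orange, SO blue), with 95% exact binomial intervals as bars. SO replicate 1 lies apart in the first 2 panels, at 0.281% and 0.203%, and within the others in the erythroid panel, at 0.0145%.

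The number of names seen was lowest in the 2 shallowest libraries. All 8 names had at least 1 read in LO replicate 3, SO replicate 1 and SO replicate 3, 7 in SO replicate 2, 5 in LO replicate 1 and 3 in LO replicate 2, the shallowest library. In LO replicate 2 these were miR-142-3p, miR-342 and miR-451. LO libraries averaged 5.33 ± 2.52 names and SO libraries 7.67 ± 0.577 (SD, n = 3 each). At the 7755 listed reads of LO replicate 2 the number expected was 3.44 ± 0.482 in LO and 3.63 ± 1.16 in SO.

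Between large and small follicles no member differed beyond the spread of the libraries by limma, and edgeR called miR-142-3p alone, in a fit that rested on SO replicate 1. In the fit of 104 miRNAs limma on log2(RPM + 1) called 0 of them (0% of those tested) at a false discovery rate (FDR) of 0.05, and miR-342 was not among the 4 with an unadjusted p under 0.05. edgeR with TMM on the reads recovered from the RPM values called 2 of the 104 (1.92%), neither of them a member. With every miRNA that had at least 1 read in the fit, limma called 0 of 242 (0%), and the 6 miRNAs with an unadjusted p under 0.05 included no member. For none of the 8 were the LO and SO values apart, beside 5.79% of the 242 miRNAs. The mean RPM was higher in LO for 4 members (miR-155-5p, miR-342, miR-451 and miR-486) and higher in SO for 4 (both miR-142 arms, miR-150 and miR-144), beside 62.4% of the 242 higher in LO. With TMM scaling in limma miR-155-5p and miR-486 changed side, at log2 fold changes of -0.41 and -0.19. The median log2 difference of LO over SO was -0.05 for the 8 and 0.17 for the 242.

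The value of miR-142 in this comparison rested on SO replicate 1. LO averaged 3.56 ± 2.90 RPM of miR-142-3p and SO averaged 14.2 ± 23.8 RPM (n = 3 each), or 0.489 RPM without SO replicate 1, so that the order of the groups turned. Its log2 fold change by limma over the 242 miRNAs was -0.24 (SE 0.92, limma FDR 0.925), and 1.37 (limma FDR 0.860) without SO replicate 1. edgeR with TMM and the fit without a filter were each planned, and their combination, added after the values were seen, called 2 miRNAs (0.826%), of which miR-142-3p was the only member, lower in LO (log2 fold change -2.53, edgeR FDR 0.0255). Without SO replicate 1 edgeR gave 1.61 (edgeR FDR 0.765), and DESeq2 with all libraries gave -1.91 (DESeq2 adjusted p = 0.981). In edgeR the log2 fold change stayed below 0 when any 1 of the 5 other libraries was left out. By limma it turned to 0.35 without LO replicate 3 (limma FDR 0.973). miR-142-3p passed FDR 0.05 in edgeR without LO replicate 2 (-3.48, FDR 0.000311), SO replicate 2 (-3.06, FDR 0.00356) or SO replicate 3 (-3.07, FDR 0.00136). It did not pass in edgeR without LO replicate 1 (-2.47, FDR 0.194) or LO replicate 3 (-1.68, FDR 0.308), or with the replicate number as a block (-1.67, FDR 0.547). miR-142-5p had log2 fold changes of -0.97 by limma and 0.15 without SO replicate 1 (limma FDR 0.829 with all libraries). Pooled over libraries, the leukocyte list stood in LO at 0.759 times its share in SO (0.583 to 0.979, counting error only) with SO replicate 1 and at 1.35 times (0.985 to 1.85) without it, while the erythroid list stood at 1.29 (0.555 to 2.86) and, without that library, at 1.42 (0.556 to 3.60).

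Other miRNAs of blood and its vessels were read from lists chosen beside the members, and limma called none of their tested names in either direction. edgeR with TMM called 1 of them, miR-210, the hypoxia-induced miRNA, higher in LO (log2 fold change 1.65, edgeR FDR 0.0177). It had 56, 3 and 47 reads in LO and 24, 19 and 18 in SO, and LO replicate 2, at 6.50 RPM, was below every SO library. The call did not hold in edgeR with the replicate number as a block (FDR 0.371), nor without LO replicate 1 (FDR 0.422), LO replicate 3 (FDR 0.270), SO replicate 1 (FDR 0.126) or SO replicate 3 (FDR 0.316). It held in edgeR without LO replicate 2 (FDR 0.00154) or SO replicate 2 (FDR 0.0455). Of 9 further leukocyte names, 8 were analysed, all with reads, and 3 were tested, with 1 mean log2 value higher and 2 lower in LO and a median log2 fold change of -0.29 (-0.53 with TMM). miR-146a-5p, induced by NF-kB in immune cells and also made elsewhere, averaged 169 ± 57.1 RPM for LO and 202 ± 39.6 RPM for SO and made up most of that list. Its level in SO replicate 1 was 1.09 times that of the 5 other libraries (0.973 to 1.21). miR-146b stood at 2.04 times (1.10 to 3.74) in SO replicate 1, on 20 reads, and miR-181a, abundant in thymocytes, at 0.631 times (0.384 to 0.997). miR-181b stood there at 0.474 times (0.120 to 1.37), on 4 reads. miR-223, the leading miRNA of neutrophils and platelets, was not analysed here. Of 10 further erythroid names 8 were analysed and 7 tested, 6 higher and 1 lower in LO with a median of 0.13, which turned to 1 higher and 6 lower with a median of -0.11 with TMM. Among them miR-16, at 3306 ± 970 RPM for LO and 3066 ± 589 RPM for SO, is made in most tissues and held nearly all of their reads. Of 8 platelet names 6 were analysed and 5 tested, all 5 higher in LO with a median of 0.40. With TMM they were 3 higher and 2 lower with a median of 0.21. miR-21, which is also on the granulosa and cumulus list, held 1992 of the 3786 platelet reads. Its level in SO replicate 1 was 1.25 times that of the 5 other libraries (1.14 to 1.38). Beside these lists, 72 of all 104 tested miRNAs were higher in LO with a median of 0.29, or 55 with a median of 0.05 with TMM.

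Endothelial miRNAs took 0.0848% ± 0.0215 of listed reads in LO and 0.0648% ± 0.0210 in SO, with 1 of 5 names tested. miR-126-3p, the endothelial miRNA, had 7, 3 and 9 reads in LO and 22, 11 and 6 in SO, and stood in SO replicate 1 at 1.81 times the 5 other libraries (1.01 to 3.16). miR-122, a liver miRNA that circulates in plasma, took 0.0420% ± 0.0211 and 0.0469% ± 0.0410, and in SO replicate 1, with 23 reads, it was below SO replicate 3, with 46. Muscle miRNAs, 4 of 7 names with reads, took 0.116% ± 0.0223 and 0.0823% ± 0.0306. Granulosa and cumulus miRNAs took 2.77% ± 0.960 and 2.14% ± 0.436, with 4 of 8 names tested and a median of 0.39 (0.17 with TMM). miR-23a, against which miR-451 was set above, and miR-23b had log2 fold changes of 0.81 and 0.54 (limma FDR 0.780 for each). These lists stand beside the miR-142 values of SO replicate 1, and their part in that result was not tested.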

How the data were processed

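The members and all lists were chosen with earlier results of these data known. Oocyte RNA was isolated with mirVana and libraries were made with the QIAseq miRNA kit, per the labels' protocols. bcl2fastq, cutadapt, edgeR, Bowtie2 2.2.2 and the build Sscrofa10.2 appear in the submitters' processing notes, without role or order. The deposited values are headed TPM but are RPM: each is a whole multiple of 1 step per library (100% whole within 0.01 read), so reads were recovered. The sources used here do not say whether the kit's molecular identifiers were counted. Intervals and limits cover counting error only.

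log2(RPM + 1) was fitted by group alone with limma 3.58.1 (trend, R 4.3.3), and p-values were adjusted by Benjamini-Hochberg over the 104 miRNAs passing edgeR's filterByExpr. Fold changes on that scale understate changes of low miRNAs. edgeR 4.0.16 and DESeq2 1.42.0 on recovered reads were alternatives, as were scalings, filters, pseudocounts and leaving out each library. Sums over members were given no p. Within a group every pair of libraries differed by more than sampling noise (chi-square per degree of freedom 2.71 to 16.8). All members were named, as were the 3 tested miRNAs most like each tested member; any name of a list with reads could be. miR-205, miR-155-3p and names first given in the closing section were chosen after their values were seen.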

Additional observations from a re-analysis of the deposited data

How the results depend on the processing

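The log2 fold change of miR-342 stayed above 0 and was not called in each of 16 alternatives, from 0.12 (DESeq2) to 0.60 (without SO replicate 1). In edgeR on all 242 miRNAs it was 0.04, and it fell to -0.28 without LO replicate 2 and to -0.0077 without SO replicate 3, with no call. Over the tested miRNAs edgeR with TMM called 2 and DESeq2 called 2, against 0 by limma, and leaving out a library gave 0 to 18 calls by limma, none a member. edgeR on all 242 miRNAs called 1 member, miR-142-3p, and leaving out a library there gave 0 to 1. The leukocyte share of LO minus SO, -0.00674 percentage points, ran from -0.0475 without SO replicate 3 to 0.0565 without SO replicate 1. The erythroid difference ran from 0.00335 to 0.00920 over the same omissions. For all 8 names together the difference ran from -0.0390 without SO replicate 3 to 0.0644 without SO replicate 1. The difference in names detected was -2.33, and -0.190 when every library was scaled down to the reads of the shallowest library; leaving out a library gave -3.67 to -1.17. As the replicate numbers are shared by both groups, the replicate block was also fitted. Deviations of log2(RPM + 1) from the group means had correlations of -0.34, -0.22 and 0.08 between same-numbered libraries. Between differently numbered libraries they ran from -0.29 to 0.43. With 3 libraries per group these values cannot show whether the numbers mark pairs, and they were not taken as pairs. With the block limma called 0 of 104 and edgeR 0, and miR-342 was at 0.45 (limma FDR 0.853). Depth limits 6 of the 8 members, with under 50 reads each, to large differences.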

Other observations

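The contrast between SO replicate 1 and every other library was also read without choosing the miRNA by lineage, after the values were seen. For each of the 167 miRNAs with at least 10 reads, the level in a library was divided by its highest level in any other library, both in reads per 1000000 listed miRNA reads with 10 added. In SO replicate 1 miR-142-5p had the highest ratio, 7.16 on 22 reads, and miR-142-3p the next, 3.68 on 80 reads. miR-190a followed at 1.56 on 89 reads and miR-150 at 1.49 on 5 reads, too few to tell. The highest ratios of the other libraries were 3.67 in LO replicate 1 (miR-1306-5p, 11 reads), 3.35 in LO replicate 2 (miR-193a-5p, 3 reads), 1.71 in LO replicate 3 (miR-1285), 1.58 in SO replicate 2 (miR-2411) and 1.76 in SO replicate 3 (miR-129a). In LO replicate 2 miR-451 was next, at 2.66 on 2 reads.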
